A study of Mus musculus with 10 samples.

Results

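The genes described here are the mouse zinc finger genes whose symbols run from Zfp900 to Zfp999, together with Zfp51, Zfp52, Zfp53 and Zfp54. They were picked by symbol from the deposited count table, and 61 of its 22457 genes met the rule. Symbols with a letter after the number were left out, so Zfp955a and Zfp955b are counted below with the other numbered Zfp genes. The list was taken up because Zfp948 and Zfp52 had stood higher in M3-CKO organoids in an earlier look at these same data, so the values of these 2 genes are given as a description with no test, and the counts over the list support nothing by themselves. The libraries came from tracheal epithelial organoids, which were started from basal cells of the airway (its epithelial stem cells), embedded in gel and harvested on day 14. The M3-CKO group had 3 RNA-seq libraries from organoids of mice labelled M3-CKO, and the title of the series names a Mettl3 knockout. The Ctrl group had 3 RNA-seq libraries from organoids of mice labelled Ctrl, cultured alike. METTL3 is the methyltransferase that places m6A, a methyl mark on adenosine, in messenger RNA. The sources used here do not give the strain and age of the mice, the deleted part of Mettl3, the Cre driver if one was used, or whether replicates were separate animals. P-values therefore measure only how far these libraries scatter, and that scatter may be technical.

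Most genes of this naming series encode proteins with a KRAB domain, a short repressor domain at the amino end, followed by a row of C2H2 zinc fingers that bind DNA. The KRAB domain recruits the scaffold protein TRIM28, which brings in the histone H3 lysine 9 methyltransferase SETDB1 and heterochromatin proteins, and many such proteins are known for silencing transposable elements. The genes arose by repeated tandem duplication, so that they sit in clusters of close copies, they differ between species, and most have no known target. In a count table, close copies can also share or lose reads that match more than 1 of them.

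In the RefSeq gene order of mouse assembly GRCm38.p6, to which all 61 symbols matched, 40 members lay in 5 clusters of at least 3 members. The largest, on chromosome 17, held 14 members and began with Zfp54, Zfp51, Zfp53, Zfp52 and Zfp948, in that order. Clusters of 12, 8, 3 and 3 members lay on chromosomes 4, 2, 7 and 8. The promoters of Zfp948 and Zfp52, the neighbours that gave rise to the list, are shown because they share a stretch of 24 bases with 1 mismatch, the longest such stretch between them. Each sequence is the 250 bases before the annotated start, from RefSeq on GRCm38.p6, 5′ to 3′ on the plus strand, with the shared stretch in capitals. The window of Zfp948 is chr17:21566728-21566977 and that of Zfp52 is chr17:21535289-21535538.
Zfp948: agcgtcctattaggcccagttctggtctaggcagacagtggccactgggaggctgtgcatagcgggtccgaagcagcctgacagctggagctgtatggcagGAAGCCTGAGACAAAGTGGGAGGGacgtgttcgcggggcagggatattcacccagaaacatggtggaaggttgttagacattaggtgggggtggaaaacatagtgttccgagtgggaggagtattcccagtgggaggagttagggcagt
Zfp52: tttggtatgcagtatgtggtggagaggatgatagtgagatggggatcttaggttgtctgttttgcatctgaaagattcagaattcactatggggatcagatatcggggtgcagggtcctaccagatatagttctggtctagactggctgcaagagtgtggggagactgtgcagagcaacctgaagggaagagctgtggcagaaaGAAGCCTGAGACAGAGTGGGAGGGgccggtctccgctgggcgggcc

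The stretch was searched as GAAGCCTGAGACANAGTGGGAGGG on both strands in windows running from 250 bases before to 50 bases after each annotated start. The letters were made from the windows of Zfp948 and Zfp52, so it was fixed in advance that both would hold them. Of 32851 windows, these 2 were the only ones that did. Mismatches were allowed only in a search of the called members and of the genes from Zfp54 to Zfp983, among which Zfp51 had no window. In that search the neighbour Zfp53 held the stretch with 1 mismatch. Zfp54 and Zfp983 of the same cluster each held it with 4, and a further window of Zfp54 had 9. The best matches of the called members Zfp981, Zfp943, Zfp935 and Zfp971 had 9, 10, 11 and 11 mismatches. How common a match with 4 mismatches is among all windows was not counted. In the best matches below, capitals mark the bases that differ from those of Zfp948. A match in a promoter is a description of the sequence and says nothing of a factor that binds there.
Zfp948: gaagcctgagacaaagtgggaggg
Zfp52: gaagcctgagacaGagtgggaggg
Zfp53: gaagcctgagacCGagtgggaggg
Zfp54: gCagcctgagacTGaTAgggaggg
Zfp983: gCagcTtgaCacaGaAtgggaggg

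Library totals ran from 8977765 to 10485922 counts in M3-CKO and from 8906375 to 9592840 in Ctrl. Levels are given as CPM (counts scaled to 1000000 per library, on TMM-scaled library sizes), so that 1 CPM rests on 8.76 to 10.4 counts. M3-CKO replicate 3 stood apart from the other M3-CKO libraries, with a Pearson r across genes of log2 CPM of 0.925 and 0.914 with replicates 1 and 2, which had an r of 0.988 with each other. Mettl3 stood at 11.1, 10.3 and 9.87 CPM in M3-CKO and at 14.96, 17.0 and 18.9 CPM in Ctrl (log2 fold change -0.70, SE 0.21, edgeR adjusted p = 0.12). With M3-CKO replicate 3 left out, Mettl3 was called lower (adjusted p = 0.043). In that fit edgeR called 25.0% of all genes tested, so calls without this replicate, here and below, are a description and no support. Epithelial markers (Epcam, Cdh1, Krt8 and Krt18) were present in both groups, with summed levels of 1865 to 2965 CPM in M3-CKO and 2057 to 2594 CPM in Ctrl. The 5 basal cell markers summed to 507 to 874 CPM in M3-CKO and 1765 to 2179 CPM in Ctrl, so the groups did not overlap. The 4 multiciliated cell markers reached 37.9 to 83.3 CPM in M3-CKO and 14.4 to 42.9 CPM in Ctrl, and the 3 club cell markers 1115 to 3399 CPM in M3-CKO and 2560.45 to 2829 CPM in Ctrl. The markers of mesenchyme that had a row (3 of 5) summed to 1.35 to 3.05 CPM in M3-CKO and 3.38 to 12.4 CPM in Ctrl. Those of endothelium (1 of 3) and smooth muscle (2 of 2) reached at most 1.45 CPM in any library, and those of immune cells (2 of 4) at 37.6 to 93.3 CPM in M3-CKO and 53.3 to 81.1 CPM in Ctrl. The part of the cell make-up in the differences below was not tested. In such bulk libraries, fewer cells of a type and less RNA per cell cannot be told apart.

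Of the 61 members, 48 had enough counts to be tested, with 10 as the count minimum of edgeR's filter. The threshold for a call was 0.05, on p-values adjusted by Benjamini-Hochberg over all 13528 genes tested. Among the 48, 3 were called higher and 3 lower in M3-CKO, against 1.74% and 1.16% of all genes tested (2.91% in either direction). The 3 higher ones include Zfp948 and Zfp52, which gave rise to the list, and Zfp981, which passed the filter through M3-CKO libraries alone, so nothing is read from that count. In what follows a call, and an adjusted p with no tool named, is edgeR's. On the same 6 libraries DESeq2 called 7 members higher and 7 lower, against 6.05% and 4.31% of all genes tested (10.4% in either direction). They were the 6 members that edgeR called and Zfp51, Zfp930, Zfp958, Zfp974, Zfp946, Zfp950, Zfp961 and Zfp991. The 7 higher ones again include Zfp948, Zfp52 and Zfp981, so nothing is read from that count. The M3-CKO libraries lay all above the Ctrl libraries in 12 of the 48 members and all below in 11, beside 13.7% and 13.5% of all genes tested (27.1% in either direction). The same 3 genes are among the 12, and nothing is read from that count either. The median log2 fold change was -0.01 over the tested members and 0.02 over all genes tested. A log2 fold change beyond 1 in either direction was seen in 9 of the 48 members (18.8%), in 13 of 292 tested genes among the other numbered Zfp genes (4.45%), and in 11.3% of all genes tested. Zfp948, Zfp52 and Zfp981 are among the 9, so nothing is read from that share. The summed level of all 61 members was 1182 ± 87.8 CPM in M3-CKO and 1106 ± 122.8 CPM in Ctrl (SD, n = 3 each), a difference within the spread between libraries. Values lay on both sides of 0, with 24 of the 48 members positive, beside 7019 of all 13528 genes tested. Zfp948, Zfp52 and Zfp981 are among the 24, and nothing is read from that count.

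**Figure D1:**
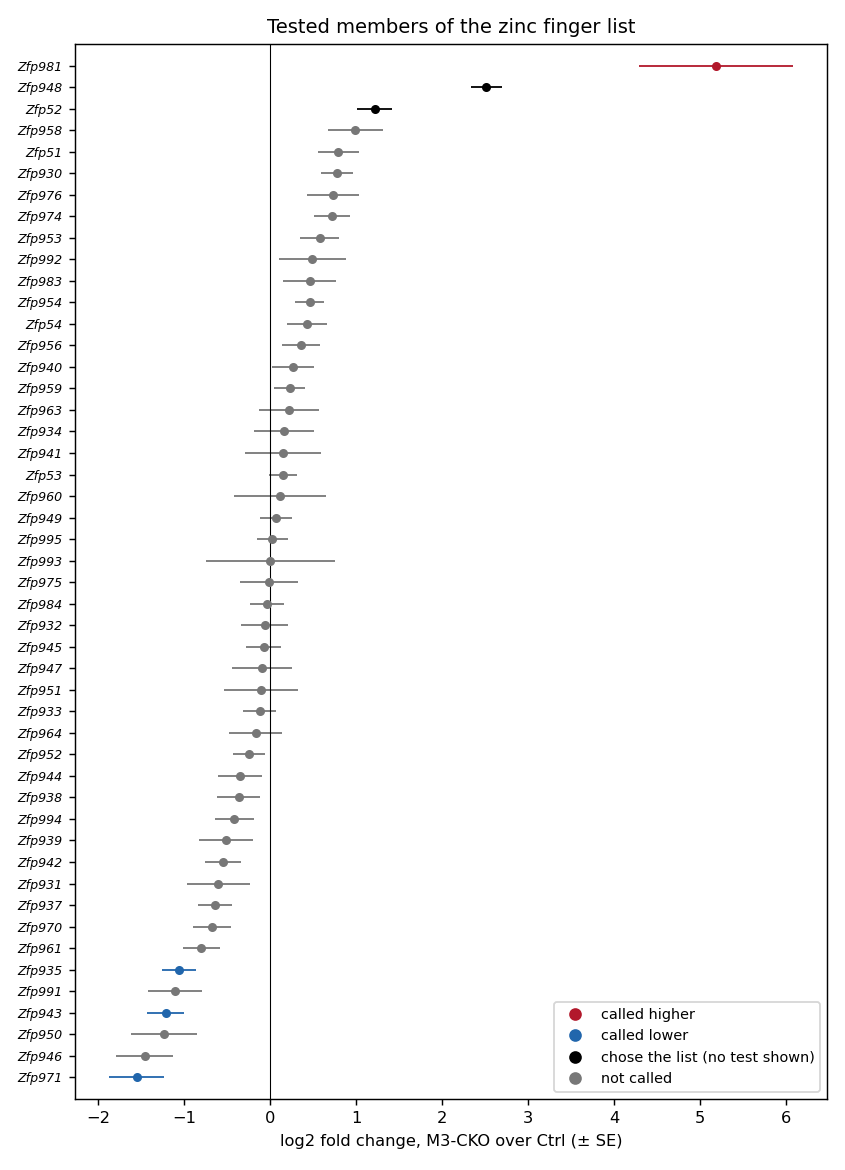
Log2 fold change of M3-CKO over Ctrl (x axis, bars are SE) for the 48 tested members, 1 per row. Zfp981 lies farthest to the right at 5.19 and Zfp971 farthest to the left at -1.56, with 24 members on the positive side.

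The M3-CKO libraries of Zfp948 lay close to each other. Its level was 68.6, 70.6 and 69.5 CPM in M3-CKO replicates 1 to 3, and 9.94, 13.5 and 13.0 CPM in Ctrl replicates 1 to 3. Every M3-CKO library, replicate 3 included, lay far above every Ctrl library, and the M3-CKO mean was 5.72 times the Ctrl mean (log2 fold change 2.51, SE 0.18). Its neighbour Zfp52 stood at 141.1, 172.5 and 113.7 CPM in M3-CKO and at 51.2, 66.1 and 66.8 CPM in Ctrl, with M3-CKO replicate 3 the nearest to Ctrl and no overlap. The M3-CKO mean of Zfp52 was 2.32 times the Ctrl mean (log2 fold change 1.21, SE 0.20). Both values chose the list and are not tested here.

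Zfp53, which lies beside Zfp52 and shares the promoter stretch with it but for 1 base, had 112.6, 135.6 and 94.2 CPM in M3-CKO and 102.9, 103.9 and 102.8 CPM in Ctrl. The groups overlapped, because M3-CKO replicate 3 was below all Ctrl libraries and the other M3-CKO libraries were above them (log2 fold change 0.14, SE 0.17, adjusted p = 0.68). Zfp51 had 64.6, 64.6 and 36.8 CPM in M3-CKO, all above the 31.3, 33.8 and 30.8 CPM in Ctrl (log2 fold change 0.79, SE 0.24, adjusted p = 0.12). Leaving out M3-CKO replicate 3, the library that lay closest to Ctrl, made it a call (1.01, adjusted p = 0.0016), and DESeq2 called it on all 6 libraries (adjusted p = 0.049). Over the 13 alternative settings its adjusted p ran up to 0.36. Zfp54, the first of the cluster, had 42.6, 49.3 and 35.3 CPM in M3-CKO and 22.8, 36.8 and 34.8 CPM in Ctrl, which overlapped (log2 fold change 0.43, SE 0.23, adjusted p = 0.35).

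The transcripts nearest to Zfp948 and Zfp52 were read as well, since neighbouring or overlapping genes could share reads. Gm30531, annotated as a transcribed pseudogene just beyond Zfp948, had 8.98, 7.42 and 13.2 CPM in M3-CKO, and 0.218, 0 and 0 CPM in Ctrl. Its summed counts were 288 in M3-CKO and 2 in Ctrl, a ratio of 136.88 after scaling to library size (exact 95% binomial interval 37.6 to 1136, counting error only). It passed the filter through M3-CKO libraries alone, so its difference is given with no test. The lncRNA gene 9330136K24Rik, whose annotation overlaps both Zfp53 and Zfp52, had 8.11, 8.10 and 2.34 CPM in M3-CKO and 2.40, 2.96 and 1.68 CPM in Ctrl, which overlapped (log2 fold change 1.39, SE 0.53, adjusted p = 0.20). On the side of Zfp53, the lncRNA gene Gm52290 went the other way, with 10.8, 13.4 and 9.26 CPM in M3-CKO and 23.9, 15.1 and 14.0 CPM in Ctrl (log2 fold change -0.67, SE 0.29, adjusted p = 0.24). Gm41541 had at most 3 counts in any library and was not tested. The sources used here do not say whether reads were counted by strand, so reads of overlapping genes cannot be told apart.

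**Figure D2:**
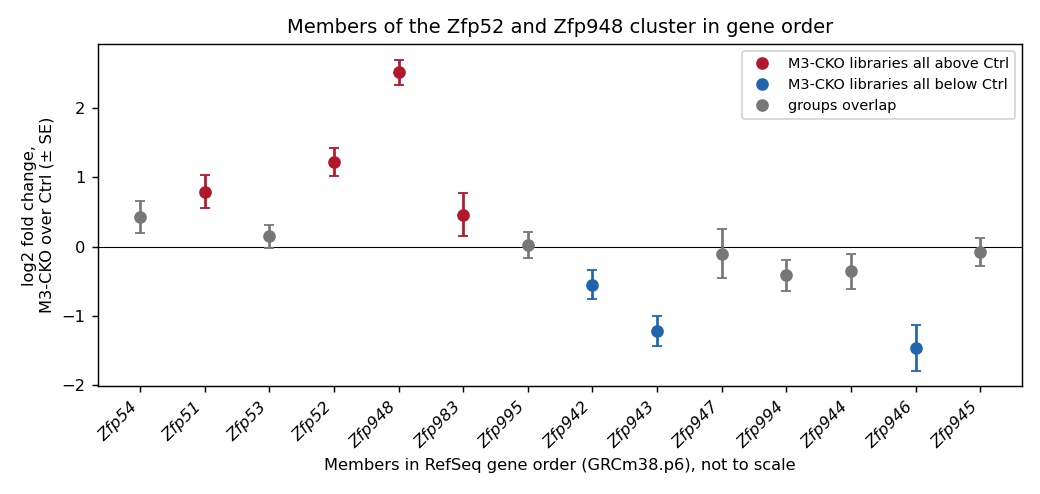
Log2 fold change of M3-CKO over Ctrl (y axis, bars are SE) for the 14 members of the chromosome 17 cluster in gene order (x axis, not to scale). Values are positive from Zfp54 to Zfp995, with the peak of 2.51 at Zfp948, and negative from Zfp942 to Zfp945, with the lowest of -1.46 at Zfp946.

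The chromosome 17 cluster held members that differed in opposite directions within 1 run of genes. Its 7 first genes in order, from Zfp54 to Zfp995, had positive log2 fold changes, and its 7 last, from Zfp942 to Zfp945, had negative ones. Zfp983, next after Zfp948, had 10.4, 11.1 and 9.36 CPM in M3-CKO and 4.80, 8.99 and 8.65 CPM in Ctrl, just without overlap (log2 fold change 0.46, SE 0.31, adjusted p = 0.45). Zfp995 was near level, at 0.02 (SE 0.18) on the log2 scale. The signs of Zfp995 and Zfp947 turned in 1 and 2 of the 13 alternative settings. The sign of a member that was not called rests on its own SE, and no test of the run as a whole was made.

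In the second part of the cluster edgeR called Zfp943, and DESeq2 called Zfp943 and Zfp946. Zfp943 fell to 19.8, 22.1 and 30.0 CPM in M3-CKO, against 48.5, 52.9 and 65.9 CPM in Ctrl (log2 fold change -1.22, SE 0.22, adjusted p = 0.037), and all M3-CKO libraries lay below all Ctrl libraries. Zfp942, beside it, had 16.6, 21.2 and 23.5 CPM in M3-CKO and 26.1, 34.5 and 29.2 CPM in Ctrl, again without overlap (-0.55, SE 0.21, adjusted p = 0.20). Zfp946 had 12.4, 13.4 and 27.4 CPM in M3-CKO and 39.7, 51.6 and 55.0 CPM in Ctrl. Its log2 fold change of -1.46 (SE 0.33, adjusted p = 0.062) missed edgeR's threshold with the low-count filter and passed it without the filter (adjusted p = 0.019), and DESeq2 called it (adjusted p = 0.0011). Without M3-CKO replicate 3, the highest of its group, it was -1.93 (adjusted p = 6.8e-04). The remaining 4 genes of this part, Zfp947, Zfp994, Zfp944 and Zfp945, had log2 fold changes between -0.42 and -0.08 with overlapping groups.

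The chromosome 4 cluster held genes that were at or near 0 in Ctrl and had counts in M3-CKO. Such clusters are known to vary between mouse strains, and the sources used here do not say whether both groups share a strain background. The part of strain background was not tested, in these values or in those on chromosomes 2, 13 and 17. Zfp981 had 21, 26 and 43 counts in M3-CKO replicates 1 to 3, and 2, 0 and 0 counts in Ctrl replicates 1 to 3, which is 2.03, 2.97 and 4.37 CPM against 0.218, 0 and 0 CPM. The ratio of the summed counts, scaled to library size, was 42.8, with an exact 95% binomial interval of 11.5 to 359 that covers counting error only. Since Zfp981 passed the filter through M3-CKO libraries alone, its difference is given with no test, and its fitted log2 fold change of 5.19 depends on the prior count. The annotation of Zfp981 overlaps that of Zfp993, which had 28, 13 and 5 counts in M3-CKO and 4, 16 and 23 counts in Ctrl and so did not share this pattern.

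Of the 12 members of the chromosome 4 cluster, 6 were under the filter. Zfp988 had 7, 8 and 6 counts in M3-CKO and 0 in all Ctrl libraries, 6.65-fold higher when the Ctrl group as a whole is set to a floor of 3 counts. This ratio leaves out the counting error of the M3-CKO counts and is no strict lower limit. Zfp979, also known as Ssm1b and known in mice for the methylation of a transgene in some strains and not in others, had 2, 4 and 8 counts in M3-CKO and 0 in all Ctrl libraries (4.44-fold higher by the same floor). Zfp987 had 1, 4 and 0 counts and Zfp990 0, 0 and 6 counts in M3-CKO, and both had 0 in Ctrl, so each was seen in part of the M3-CKO libraries. Zfp978 had 2 counts in all, in M3-CKO replicate 1, and Zfp982 had 8 to 12 counts in M3-CKO and 4 to 10 in Ctrl. These counts are too low for a test with the filter used. Across the whole table, 23 of 22457 genes, Zfp988 among them, had 0 counts in all Ctrl libraries and at least 5 in every M3-CKO library, and 7 had the opposite pattern.

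Of the other 5 tested members of the same cluster, edgeR called 0 and DESeq2 called Zfp991 on all 6 libraries, and Zfp991 was the 1 with an unadjusted p under 0.05. Zfp991 had 5.31, 8.44 and 5.49 CPM in M3-CKO, all below the 11.2, 12.4 and 17.9 CPM in Ctrl (log2 fold change -1.11, SE 0.31, adjusted p = 0.10; called without M3-CKO replicate 3, -1.02, adjusted p = 0.045; DESeq2 adjusted p = 0.023). Zfp992 had 8.01, 13.9 and 5.39 CPM in M3-CKO and 5.68, 5.92 and 7.86 CPM in Ctrl, with wide overlap. Its log2 fold change of 0.49 (SE 0.39, adjusted p = 0.53) was 0.06 without M3-CKO replicate 2, its highest library. Zfp984 and Zfp933, at the end of the cluster, had log2 fold changes of -0.04 (SE 0.20) and -0.12 (SE 0.19).

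**Figure D3:**
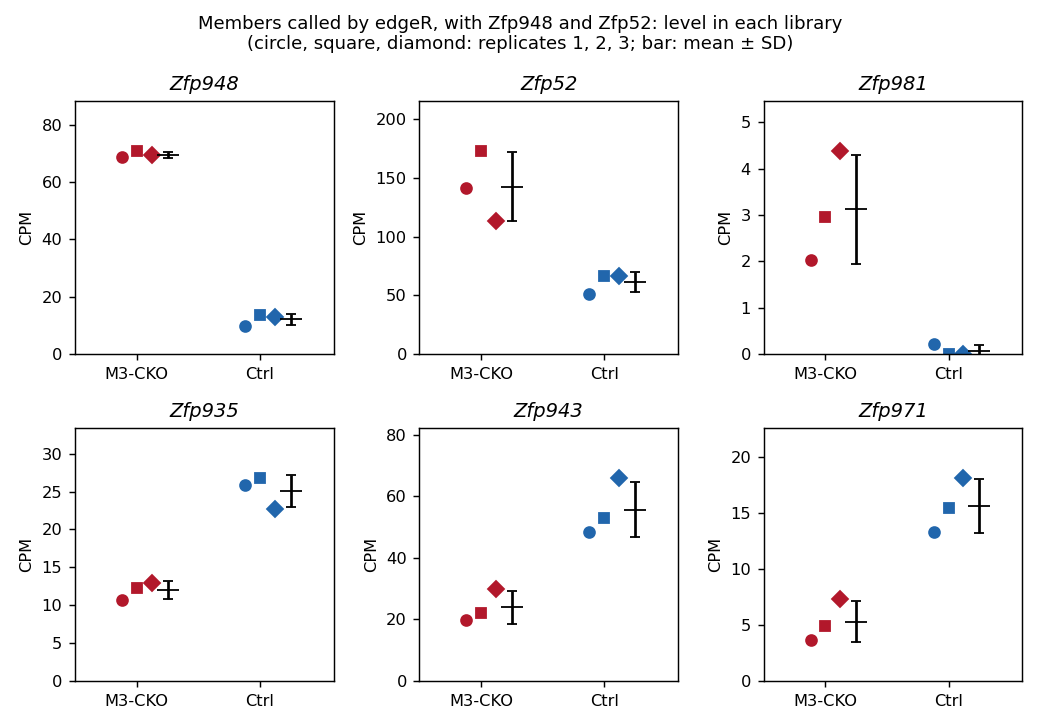
Level in CPM (y axis, from 0) of 6 members in each library, M3-CKO left and Ctrl right, with the mean and SD over 3 libraries beside the points. In all 6 panels the groups do not overlap, with Zfp948, Zfp52 and Zfp981 higher in M3-CKO and Zfp935, Zfp943 and Zfp971 lower.

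In the chromosome 2 cluster, all 3 tested members had negative values. Zfp971 fell to 3.67, 4.91 and 7.32 CPM in M3-CKO, against 13.3, 15.4 and 18.1 CPM in Ctrl, with no overlap (log2 fold change -1.56, SE 0.32, adjusted p = 0.048). Zfp970 had 16.7, 19.9 and 27.1 CPM in M3-CKO and 36.3, 31.7 and 34.1 CPM in Ctrl (-0.68, SE 0.22, adjusted p = 0.14), again with every M3-CKO library lower. Zfp931, next to Zfp971, had 4.73, 6.28 and 11.7 CPM in M3-CKO and 12.4, 9.52 and 12.6 CPM in Ctrl, and its groups overlapped through M3-CKO replicate 3. Its log2 fold change was -0.60 (SE 0.37, adjusted p = 0.41), and -1.07 without that replicate (adjusted p = 0.023). The other 5 members there were under the filter: Zfp972 had 12 counts in M3-CKO and 26 in Ctrl, a ratio of 0.439 (exact 95% binomial interval 0.202 to 0.901, counting error only), and Zfp965, Zfp966, Zfp967 and Zfp968 had at most 8 counts in any library. Zfp937, on the same chromosome but outside the cluster, had 22.9, 24.9 and 31.1 CPM in M3-CKO and 37.6, 37.3 and 48.3 CPM in Ctrl (-0.64, SE 0.20, adjusted p = 0.13; called without M3-CKO replicate 3, -0.79, adjusted p = 0.014).

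Zfp935 and Zfp934, neighbours on chromosome 13, differed from each other in their values. Zfp935 fell to 10.7, 12.3 and 12.9 CPM in M3-CKO, against 25.9, 26.7 and 22.7 CPM in Ctrl (log2 fold change -1.07, SE 0.20, adjusted p = 0.038). The libraries within each group lay close together, and M3-CKO replicate 3 lay with the other M3-CKO libraries. Zfp934 averaged 4.68 ± 0.978 CPM in M3-CKO and 4.20 ± 1.01 CPM in Ctrl (SD, n = 3 each), and its groups overlapped (0.16, SE 0.35, adjusted p = 0.85). Of the transcripts with a row nearest to Zfp935, read after its value was seen, Gm21145 had 6.18, 5.93 and 3.66 CPM in M3-CKO and 0.655, 1.27 and 0.449 CPM in Ctrl (2.71, SE 0.50). Gm21145 reached the count level of the filter in 3 M3-CKO libraries and 1 Ctrl library, so its difference is given with no test. Gm19792 had 107, 100 and 45 counts in M3-CKO and 0 in all Ctrl libraries, 79.8-fold higher by the floor of 3 counts for the whole Ctrl group. It passed the filter through M3-CKO libraries alone and is given with no test. Gm3604, next to Zfp935 on the side away from Gm21145, had 11.7, 11.1 and 4.68 CPM in M3-CKO. In Ctrl it had 1.53, 3.17 and 4.04 CPM (log2 fold change 1.65, SE 0.49, adjusted p = 0.12). LOC115488203 and Gm24095 had at most 7 counts in any library and were not tested.

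The calls of Zfp935, Zfp943 and Zfp971 depended on which libraries entered the fit. All 3 were called without M3-CKO replicate 3, and none of them without M3-CKO replicate 1, without M3-CKO replicate 2, or without any 1 of the 3 Ctrl libraries, when edgeR called between 0 and 18 genes in the whole table. Over all 13 alternative settings the highest adjusted p was 0.17 for Zfp935 and Zfp943 and 0.21 for Zfp971. The log2 fold change kept its sign in all 13 settings for each of the 3, and ran from -1.14 to -0.99 for Zfp935, from -1.42 to -1.08 for Zfp943 and from -1.87 to -1.35 for Zfp971. Without M3-CKO replicate 3, 18 of 50 tested members were called, 7 higher and 11 lower, where 25.0% of all tested genes were called (13.7% higher, 11.3% lower). For the members added to the main calls in that fit, the highest adjusted p over all 13 settings lay between 0.22 (Zfp946) and 0.74 (Zfp931). The M3-CKO group is then a pair of libraries that lay closer together than any Ctrl pair, and the part of this closeness in the added calls was not tested.

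Elsewhere in the genome lay 7 of the 12 members that were higher in M3-CKO with no overlap, a pattern seen in 13.7% of all genes tested. The 7 are only a part of the list, so nothing is read from their number beside that share. Of the 7, edgeR called 0, with 5 at an unadjusted p under 0.05, and DESeq2 called Zfp930 and Zfp974. Of all genes tested, 11.6% were higher at an unadjusted p under 0.05. The 7 were picked for their lack of overlap, so nothing is read from the count of 5. Zfp930, in the chromosome 8 cluster, had 49.6, 56.9 and 39.4 CPM in M3-CKO and 27.4, 28.7 and 29.2 CPM in Ctrl (log2 fold change 0.77, SE 0.18, adjusted p = 0.069; 0.90 and called without M3-CKO replicate 3, adjusted p = 0.0033; DESeq2 adjusted p = 0.0099). Zfp974 had 36.4, 49.2 and 33.6 CPM in M3-CKO and 20.5, 25.3 and 26.6 CPM in Ctrl (0.72, SE 0.21, adjusted p = 0.11; 0.016 without M3-CKO replicate 3; DESeq2 adjusted p = 0.047). Zfp930 and Zfp974 thus stood apart from Ctrl in all libraries, by a margin that varied with the library.
Zfp953 had 20.4, 24.4 and 20.1 CPM in M3-CKO and 11.7, 17.4 and 14.5 CPM in Ctrl (0.57, SE 0.23, adjusted p = 0.21). Zfp976 had 8.11, 7.30 and 6.71 CPM in M3-CKO and 3.93, 5.71 and 3.71 CPM in Ctrl (0.73, SE 0.30, adjusted p = 0.23). Zfp954 had 29.2, 33.2 and 29.5 CPM in M3-CKO and 21.0, 23.0 and 22.9 CPM in Ctrl (0.46, SE 0.17, adjusted p = 0.18). In Zfp976 and Zfp953 the highest Ctrl library lay near the lowest M3-CKO library, and in Zfp954 the groups stood farther apart.
Zfp940 had 7.43, 7.42 and 8.34 CPM in M3-CKO and 6.33, 6.13 and 6.85 CPM in Ctrl (0.26, SE 0.25), and Zfp959 had 22.9, 20.8 and 23.1 CPM in M3-CKO and 17.4, 19.7 and 20.1 CPM in Ctrl (0.22, SE 0.18). These differences, though without overlap, were about as large as their standard errors. Zfp958 had the largest positive value among members whose groups overlapped, with 63.2 and 67.8 CPM in M3-CKO replicates 1 and 2 but 28.9 CPM in replicate 3, against 24.9, 24.5 and 31.1 CPM in Ctrl (0.99, SE 0.32, adjusted p = 0.14). Dropping M3-CKO replicate 3 made it a call (1.28, adjusted p = 0.0013), and DESeq2 called it on all 6 libraries (adjusted p = 0.0499). Zfp956 had 23.8, 18.3 and 19.9 CPM in M3-CKO and 14.1, 15.2 and 19.0 CPM in Ctrl, which overlapped (0.36, SE 0.22, adjusted p = 0.40).

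Lower values outside the clusters were seen in several genes, and of these edgeR called Zfp935 on all 6 libraries, while DESeq2 called Zfp935, Zfp961 and Zfp950. Zfp961 had 14.2, 15.4 and 21.2 CPM in M3-CKO, all below the 27.4, 30.2 and 31.1 CPM in Ctrl (log2 fold change -0.81, SE 0.22, adjusted p = 0.090; called when M3-CKO replicate 3 was left out, adjusted p = 0.0043; DESeq2 adjusted p = 0.016). Zfp950, whose annotation overlaps that of Grk5, had 18.2, 19.7 and 32.8 CPM in M3-CKO and 28.5, 72.4 and 65.8 CPM in Ctrl. Its groups overlapped because Ctrl replicate 1 lay under M3-CKO replicate 3 (-1.24, SE 0.38, adjusted p = 0.13). It became a call when M3-CKO replicate 3 was dropped, at -1.56 (adjusted p = 0.018), and DESeq2 called it on all 6 libraries (adjusted p = 0.025). Zfp938 had 10.0, 7.30 and 9.97 CPM in M3-CKO and 10.2, 12.8 and 12.4 CPM in Ctrl (-0.37, SE 0.25, adjusted p = 0.46), and Zfp952 had 24.9, 32.6 and 34.6 CPM in M3-CKO and 37.9, 35.0 and 36.6 CPM in Ctrl (-0.25, SE 0.18, adjusted p = 0.50). In both genes the groups just failed to overlap. Zfp939 had 3.77, 5.48 and 4.17 CPM in M3-CKO and 6.88, 7.08 and 5.17 CPM in Ctrl, which overlapped (-0.51, SE 0.31, adjusted p = 0.40).

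The remaining tested members showed no separation of the groups. Among them Zfp932, known in mouse embryonic stem cells for repressing endogenous retroviruses, had 23.5, 24.2 and 24.6 CPM in M3-CKO and 15.7, 31.1 and 28.9 CPM in Ctrl (log2 fold change -0.07, SE 0.27, adjusted p = 0.92). Zfp960 had 10.8 and 13.8 CPM in M3-CKO replicates 1 and 2 and 2.75 CPM in replicate 3, against 6.33, 10.3 and 8.65 CPM in Ctrl, so that M3-CKO libraries lay on both sides of Ctrl. Its log2 fold change was 0.11 (SE 0.54) and ran from -0.29 to 0.54 over the alternatives. Zfp949, Zfp941, Zfp951, Zfp963, Zfp964 and Zfp975 had log2 fold changes between -0.17 and 0.21, each smaller than its SE. Under the filter outside the clusters on chromosomes 2 and 4, Zfp957 had 7, 7 and 0 counts in M3-CKO and 0, 2 and 0 in Ctrl, and Zfp977 had 4, 4 and 0 counts in M3-CKO and 0, 2 and 6 in Ctrl. The tested genes named here were picked after their values were seen.

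**Figure D4:**
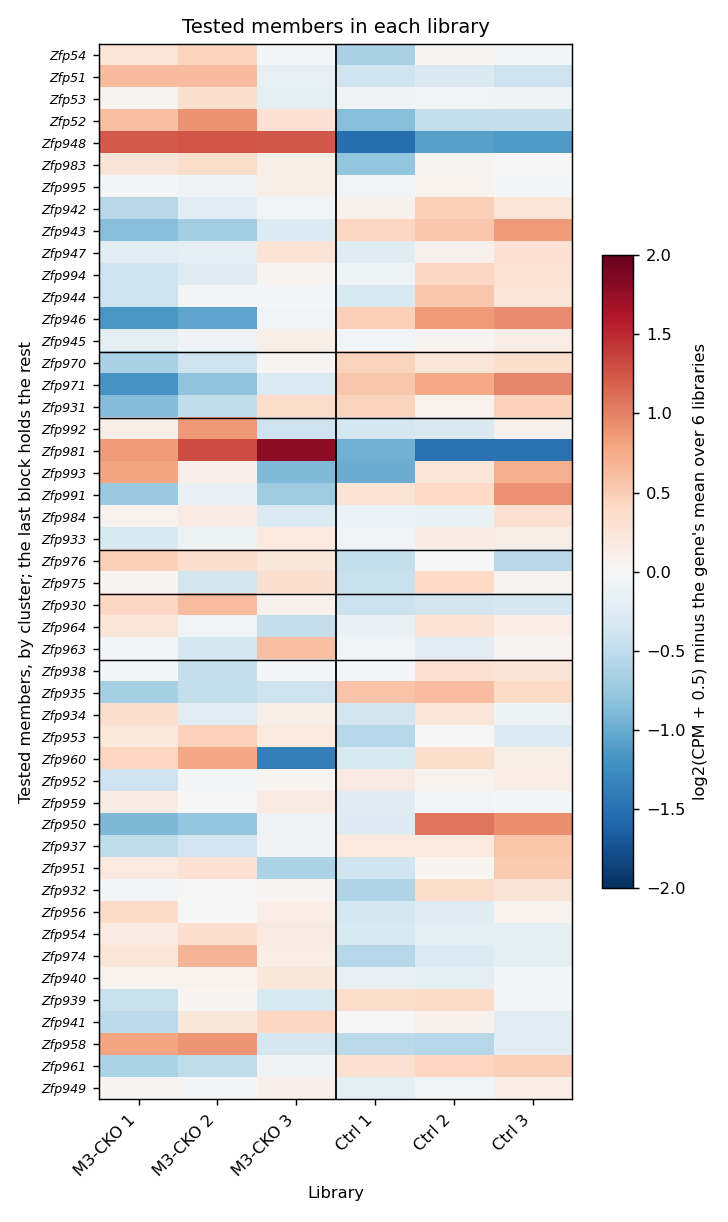
Level of the 48 tested members (rows, by cluster in gene order, with lines between clusters) in each of the 6 libraries (columns, M3-CKO left), as log2(CPM + 0.5) minus the mean of the gene. Zfp948 is high in all 3 M3-CKO libraries, and M3-CKO replicate 3 is paler than replicates 1 and 2 in genes such as Zfp971, Zfp946, Zfp51 and Zfp958.

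In many members, read gene by gene, M3-CKO replicate 3 was the M3-CKO library nearest to Ctrl. This held for 26 of the 48 tested members (54.2%), for 123 of the 292 tested genes among the other numbered Zfp genes (42.1%), and for 39% of all genes tested. It did not hold for Zfp981, in which replicate 3 was the highest of all libraries, nor for Zfp948, in which replicate 3 lay between the other M3-CKO libraries. With 3 M3-CKO libraries, each would be the nearest in many genes by equal shares alone. Across all genes tested, replicate 3 did not lie nearer to Ctrl than the other M3-CKO libraries. Its Pearson r of log2 CPM with Ctrl replicates 1 to 3 was 0.931, 0.932 and 0.928. The same r was 0.936, 0.938 and 0.941 for M3-CKO replicate 1, and 0.931, 0.937 and 0.937 for M3-CKO replicate 2.

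The promoter windows of the members had letters in common that the choice by symbol did not use. Of the 61 members, 53 had at least 1 promoter window in RefSeq on GRCm38.p6, 63 windows in all. The letters CCAAT, searched on both strands, were in 46 of the 63 windows (73.0%), against 37.4% of all 32851 windows of the same length. The letters TATAAA were in 0 of the 63 windows, against 13.6% of all windows. GGGCGG was in 33.3% of the member windows and 35.7% of all windows. Members of a cluster are copies of each other, so their windows are not independent of each other. Zfp52 and Zfp53 hold CCAAT in their windows, and Zfp948 does not.

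Partner proteins of the KRAB domain were read from the same fit. Of a list of 26 co-repressors and chromatin factors, all 26 were tested and 0 were called by edgeR, and DESeq2 called 1 lower. An unadjusted p under 0.05 was seen in 4 of the 26 (15.4%; 1 higher, 3 lower), beside 20.5% of all genes tested, so the share was not above the background. The median log2 fold change of the list was -0.11. Trim28, the scaffold that KRAB domains bind, had 65.3, 55.0 and 82.6 CPM in M3-CKO and 77.3, 74.0 and 77.4 CPM in Ctrl, which overlapped (log2 fold change -0.17, SE 0.18, adjusted p = 0.65). Setdb1, the methyltransferase that Trim28 recruits, had 65.9, 73.1 and 52.8 CPM in M3-CKO and 43.6, 49.3 and 44.7 CPM in Ctrl, without overlap (0.48, SE 0.17, adjusted p = 0.17; with M3-CKO replicate 3 dropped, 0.60 and called, adjusted p = 0.013). The other 3 with an unadjusted p under 0.05, named after their values were seen, were Cbx5, which encodes a heterochromatin protein, at -0.67 (SE 0.19, adjusted p = 0.099), Dnmt1, the maintenance DNA methyltransferase, at -0.60 (SE 0.20, adjusted p = 0.14), and Mphosph8, of the HUSH silencing complex, at -0.49 (SE 0.20, adjusted p = 0.23).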

How the data were processed

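The deposited table holds counts of reads or read pairs per gene symbol, not normalized, for 6 RNA-seq libraries. Per the submitters' processing notes, the authors' tools included Trim Galore, HISAT2 and featureCounts, with build mm39. The sources used here name no versions, annotation, strand setting or handling of reads with several matches. The 4 MeRIP libraries were not analysed here. From the counts, edgeR 4.0.16 in R 4.3.3 tested M3-CKO against Ctrl (filterByExpr, TMM, quasi-likelihood test, two-sided, no covariate, Benjamini-Hochberg adjustment over all genes tested). The SE is the log2 fold change over the square root of F. CPM uses TMM-scaled sizes. Alternatives used DESeq2 1.42.0, limma 3.58.1, other scalings and filters, a replicate block and leaving out each library. Replicates with the same number did not deviate together (r -0.11 to 0.02), so they were not paired. No within-group pair agreed within sampling noise (chi-square per degree of freedom at least 6.14). Total counts set the counting error alone, and libraries of the same group scattered by more than that. Intervals cover counting error only, and ratios to the floor of 3 counts leave out the counting error of M3-CKO. The steps of the test were first run on simulated data. Members, lists and tests were chosen with earlier results of these data known. Text names Zfp948, Zfp52, Zfp51, Zfp53, Zfp54, called members, members whose groups do not overlap, and the 3 largest further positive and negative values; other names are marked. Gene order and promoters come from RefSeq on GRCm38.p6, and no protein sequence was used.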

Additional observations from a re-analysis of the deposited data

How the results depend on the processing

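The signs of Zfp948, Zfp52, Zfp981, Zfp935, Zfp943 and Zfp971 were kept in all 13 alternatives, and the log2 fold change ran from 2.39 to 2.59 for Zfp948 and from 1.07 to 1.35 for Zfp52. Zfp948 and Zfp52 chose the list, and Zfp981 passed the filter through M3-CKO libraries alone. Their signs and calls in this section are therefore a description, and nothing is read from them as a test. Scaling by DESeq2 size factors, limma-voom and a stricter filter called the same 6 members, and library size alone lost Zfp971. DESeq2 called 1402 genes (819 higher, 583 lower; 393, 236 and 157 by edgeR), 7 members higher and 7 lower, 14 other numbered Zfp genes higher and 5 lower (3 and 0 by edgeR), 1 co-repressor lower, and Mettl3 (-0.70, adjusted p = 0.049). Without a low-count filter 740 genes (456 higher, 284 lower), 3 members higher and 4 lower (Zfp946 added, adjusted p = 0.019) and 7 other numbered Zfp genes higher and 2 lower were called. With the replicate number as a block, 20 genes (12 higher, 8 lower), 1 member higher (Zfp948), 0 members lower (adjusted p of Zfp935, Zfp943 and Zfp971 between 0.072 and 0.12) and 0 other numbered Zfp genes were called, and 2199 genes had an unadjusted p under 0.05. Leaving out 1 library gave 0 to 3483 genes (0 to 1913 higher, 0 to 1570 lower), 0 to 7 members higher and 0 to 11 lower, 0 to 49 other numbered Zfp genes higher and 0 to 14 lower, and 0 to 1 co-repressors higher and 0 to 5 lower. All highest counts came without M3-CKO replicate 3. The members' median ran from -0.0986 (without Ctrl replicate 1) to 0.0805 (without Ctrl replicate 3), that of the co-repressors from -0.147 to -0.0260046 and the value of Mettl3 from -0.78 to -0.62. The causes were not tested. Depth limits the 13 members under the filter, and 11 tested members overlap another gene with a row.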

Other observations

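Among the 292 tested genes of the other numbered Zfp genes, 3 were called higher in M3-CKO and 0 lower by edgeR, against 1.74% and 1.16% of all genes tested. DESeq2 called 14 higher and 5 lower. An unadjusted p under 0.05 was seen for 30 higher (10.3%) and 12 lower (4.11%), against 11.6% and 8.89% of all genes tested. The 3 are named after their values were seen. Zfp57, a KRAB zinc finger gene known for keeping DNA methylation at imprinted loci, had 23.9, 40.4 and 31.0 CPM in M3-CKO and 9.94, 10.7 and 5.62 CPM in Ctrl (log2 fold change 1.86, SE 0.32, adjusted p = 0.033). Zfp579 had 69.7, 60.9 and 62.9 CPM in M3-CKO and 31.0, 35.3 and 33.4 CPM in Ctrl (0.96, SE 0.15, adjusted p = 0.029). Zfp449 had 2.90, 2.28 and 1.63 CPM in M3-CKO and 0.218, 0.423 and 0.337 CPM in Ctrl, a level that rests on few counts. Zfp449 passed the filter through M3-CKO libraries alone, so its difference is given with no test. In all 3 genes every M3-CKO library lay above every Ctrl library, and all 3 calls were lost without any 1 of the 3 Ctrl libraries.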
